A study of Mus musculus with 6 samples.

Results

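The 36 genes described here mark the transit-amplifying cell, neuroblast and young neuron of the subventricular zone (SVZ) of the adult mouse brain, and their RNA was measured in neurospheres from Ts1Cje mice and disomic littermates. The genes were listed by name for their place in this lineage, and each was read from the array's probe sets, groups of short oligonucleotides against 1 transcript, that the platform annotation assigns to that symbol alone. Of the 36 genes, 34 had such a probe set, 95 probe sets in all, among 18193 genes with 1 on the array. No value is given for Sp9, or for Etv1, which 3 probe sets name beside another gene. Ts1Cje mice carry an extra copy of the distal part of mouse chromosome 16, the segment from the Sod1 gene onward, translocated to chromosome 12, with the extra Sod1 copy not functional; they model trisomy 21 in part only. The study bred both genotypes by repeatedly crossing Ts1Cje males to C57BL/6 females, and the disomic littermates were labelled C57BL/6. In both genotypes the SVZ cells came from females aged 84 days and were grown for 7 days as neurospheres, floating colonies of stem cells and their progeny kept dividing with growth factors. There were 3 Ts1Cje and 3 disomic arrays, each labelled as a biological replicate.

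In the SVZ, slowly dividing stem cells give rise to transit-amplifying cells, which divide rapidly and yield neuroblasts. The neuroblasts migrate along the rostral migratory stream to the olfactory bulb and become mostly GABAergic interneurons. Homeobox factors of the Dlx and Gsx families and SoxC factors act early on this path. Microtubule, growth cone and RNA-binding proteins follow, and GABA-synthesising enzymes, ion channels and synaptic proteins mark the maturing neuron.

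Values are log2 intensities after gcRMA, a background correction and normalisation for these arrays, whose lowest value was 2.23. A denotes the mean over all 6 arrays, and M the Ts1Cje mean minus the disomic mean, so that a positive M is higher in Ts1Cje. A gene is represented by its brightest probe set and called expressed where A exceeded 5, as did 49.2% of all genes. Intensities of different probe sets do not measure relative amounts of RNA.

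For orientation, 43 of 44 expressed genes in the trisomic segment had an M above 0, with a median of 0.53, and none of the 34 measured lineage genes lies in that segment. Correlations between arrays were 0.991 to 0.997. The 3′ minus 5′ signal of the actin control, a sign of RNA integrity and labelling length, was 2.02 ± 0.21 on Ts1Cje arrays and 1.67 ± 0.15 on disomic arrays, and that of Gapdh was 2.34 ± 0.09 on Ts1Cje arrays and 2.18 ± 0.10 on disomic arrays (SD, n = 3 each). The 18S ribosomal control averaged 12.22 ± 0.22 on Ts1Cje arrays and 11.10 ± 0.78 on disomic arrays (SD, n = 3 each). None of these 3 quantities overlapped between the genotypes.

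To show the regulatory sequence in front of genes at both ends of the results, the 250 bases before the RefSeq start (GRCm38.p6) are given for Elavl3 and Scn2a, whose arrays did not overlap between the genotypes, and for Dcx and Tubb3, familiar markers of neuroblasts and young neurons that stayed at the bottom of the scale. RefSeq holds a second start for Scn2a and for Dcx. The Elavl3 stretch is chr9:22052024-22052273 (minus strand), that of Scn2a chr2:65668436-65668685 (plus), that of Dcx chrX:143933220-143933469 (minus) and that of Tubb3 chr8:123411303-123411552 (plus). Capitals mark an E-box read by proneural factors (CAGCTG), the core of homeodomain sites (TAATTA) and the core promoter element known as the TATA box (TATAAA), each searched on both strands.
Elavl3: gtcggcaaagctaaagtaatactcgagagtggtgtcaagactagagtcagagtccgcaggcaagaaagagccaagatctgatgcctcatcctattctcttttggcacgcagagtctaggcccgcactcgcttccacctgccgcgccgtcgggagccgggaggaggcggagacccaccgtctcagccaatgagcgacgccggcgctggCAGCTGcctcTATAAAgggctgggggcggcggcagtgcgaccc
Scn2a: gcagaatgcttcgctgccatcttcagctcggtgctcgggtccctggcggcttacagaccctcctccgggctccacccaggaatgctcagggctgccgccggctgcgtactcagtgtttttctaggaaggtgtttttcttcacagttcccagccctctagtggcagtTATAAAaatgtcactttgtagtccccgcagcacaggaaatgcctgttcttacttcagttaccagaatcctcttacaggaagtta
Dcx: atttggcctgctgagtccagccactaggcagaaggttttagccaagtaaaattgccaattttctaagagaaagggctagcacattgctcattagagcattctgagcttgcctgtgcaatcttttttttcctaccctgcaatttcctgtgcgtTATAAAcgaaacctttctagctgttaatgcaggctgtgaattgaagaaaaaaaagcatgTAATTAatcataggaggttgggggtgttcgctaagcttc
Tubb3: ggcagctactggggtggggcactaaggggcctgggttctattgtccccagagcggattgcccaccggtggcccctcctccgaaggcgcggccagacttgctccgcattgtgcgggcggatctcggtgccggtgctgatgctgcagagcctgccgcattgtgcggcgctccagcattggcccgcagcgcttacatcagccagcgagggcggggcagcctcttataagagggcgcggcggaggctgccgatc
In Elavl3 the E-box began 43 bases and the TATA box 33 bases before the start. The Scn2a stretch shown held a TATA box 84 bases before its start, while the window of the other Scn2a start, chr2:65620519-65620768 (plus), held none of the motifs. The stretch of Dcx held a homeodomain core at 39 bases and a TATA box at 98 bases, both of them also within the window of its other start, and the Tubb3 stretch held none of the motifs. Such windows were matched for 22 of the 34 measured genes. A gene was counted when any of its windows held the motif, whereas the share is over single windows. Genes with several starts thus had more chances, and the counts and shares are not like measures. CAGCTG lay in 5 of the 22, against 13% of 32851 mouse promoters of the same length, TAATTA in 2 (4.84% of promoters), and TATAAA in 6 (12.4%). TTCAGCACC, the left part of the RE1 element bound by the repressor REST, lay in none of the 22 and in 0.301% of promoters. A match to these letters describes the sequence and is not evidence of binding.

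Of the 34 measured genes, 22 were expressed and 12 were not. Of the 12, 8 lay within 0.5 of the lowest value, where a difference cannot be measured: the transcription factors Dlx5 and Dlx6, the microtubule proteins Dcx, Tubb3 and Stmn2, the growth cone protein Dpysl5 and the synaptic proteins Snap25 and Syt1. Dcx, the microtubule protein of migrating neuroblasts, had an A of 2.23, and Tubb3, the neuronal tubulin, an A of 2.47. The other 4 below the threshold were fate factors, Dlx2 (A 4.59), Gsx2 (3.87), Dlx1 (3.28) and Neurod1 (2.94). Dlx2 was the gene just outside the threshold, and the sodium channel gene Scn2a (A 5.39) and the GABA-synthesising enzyme gene Gad2 (5.68) were just inside. Dlx2 had 4.61, 4.69 and 4.36 on Ts1Cje arrays, against 4.69, 4.61 and 4.61 on disomic arrays, and stayed under 5 on each. A low value describes the probe set and does not show that the transcript was missing.

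**Figure D1:**
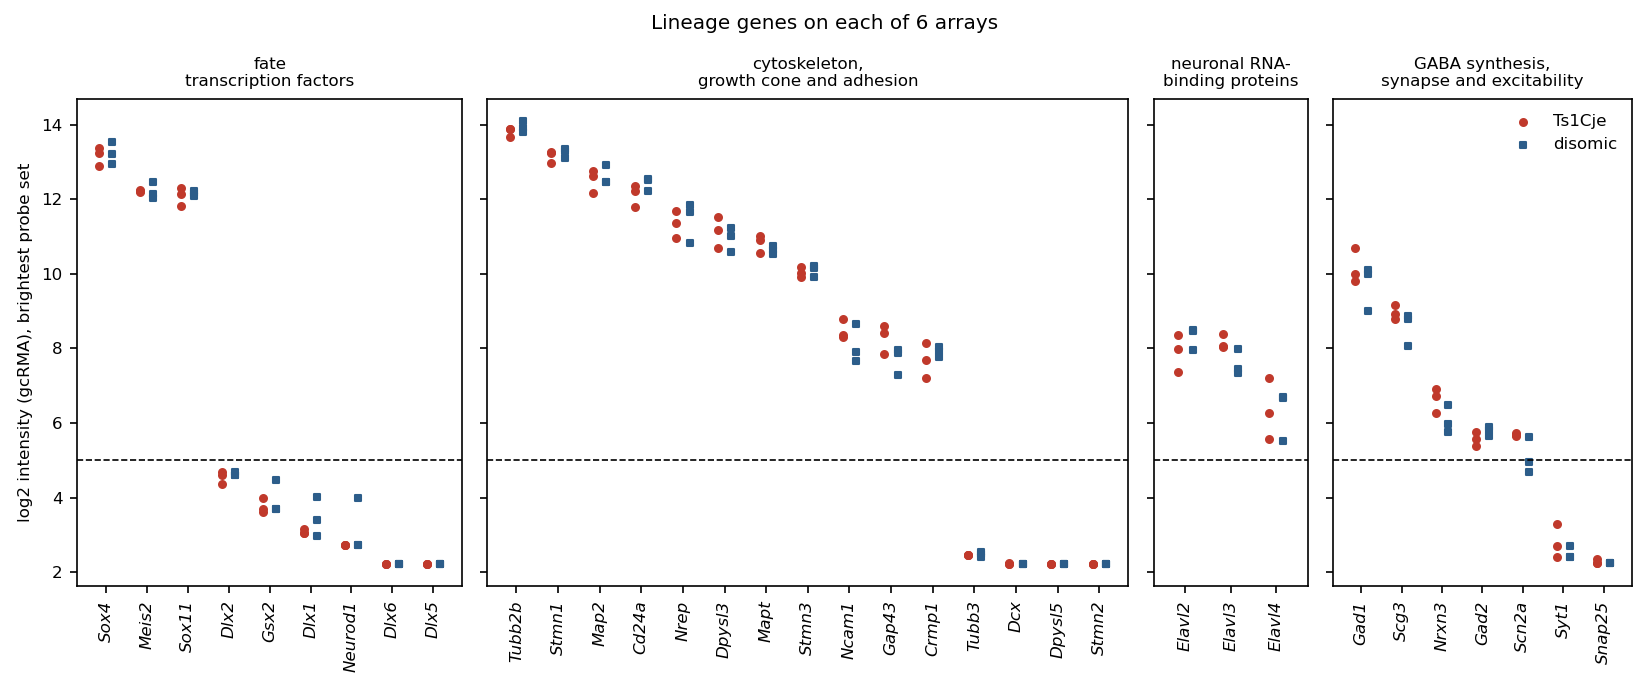
Log2 intensity (gcRMA) of the brightest probe set of each of the 34 measured genes on 3 Ts1Cje arrays (red circles) and 3 disomic arrays (blue squares), grouped by role, with the threshold of 5 dashed. Sox4, Meis2 and Sox11 sit above 11 on all 6 arrays while the Dlx genes, Gsx2 and Neurod1 lie below 5, and among the expressed genes the red and blue points are apart for Elavl3 and Scn2a.

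To compare the genotypes, M was computed for the 22 expressed genes. M was above 0 for 11 of them and below 0 for 11, between -0.40 (Elavl2) and 0.59 (Scn2a). The median M was -0.02, against 0.02 over all 8947 expressed genes. The median size of M irrespective of sign was 0.21, against 0.14 over all expressed genes, and the median standard error was 0.25, against 0.16. For each of the 22 genes the 95% confidence interval of M held 0, with half-widths of 0.28 to 1.59, so that differences smaller than these were not detectable with 3 arrays a genotype.

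None of the 22 passed a threshold on the moderated t or on the p-value, while 2 met the rule of non-overlapping arrays. With limma's moderated t-statistic none passed 4, the value the study used, against 1.13% of expressed genes above 4 and 0.693% below -4. None had an unadjusted p under 0.05, against 6.61% of expressed genes, and the adjusted p in limma was 1 for each gene, with 0.00222% of all probe sets under 0.05. The lowest unadjusted p in limma was 0.054, for Elavl3, and it fell under 0.05 with some of the other processing choices given below. The arrays of the genotypes did not overlap for 2 of the 22, Elavl3 and Scn2a, both higher in Ts1Cje, against 6.12% of expressed genes in that direction. No expressed lineage gene was without overlap and lower, against 5.16% of expressed genes. In these bulk cultures, fewer cells of a type and less RNA per cell cannot be told apart.

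**Figure D2:**
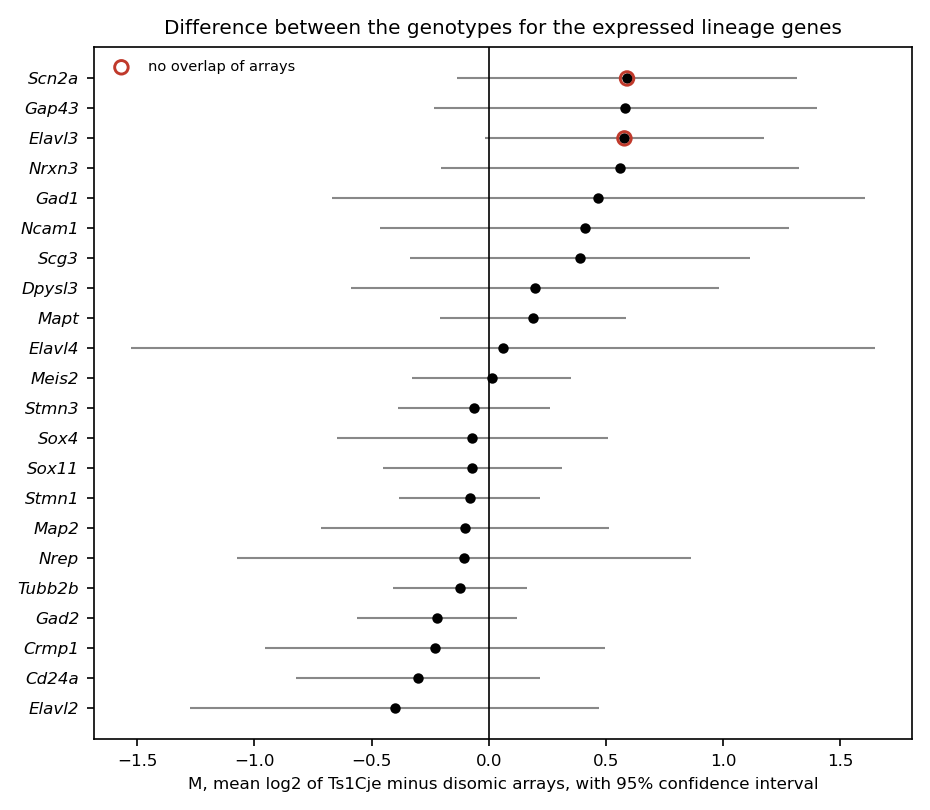
M, the mean log2 intensity of 3 Ts1Cje arrays minus that of 3 disomic arrays, for the 22 expressed lineage genes, with 95% confidence intervals from limma. Every interval crosses 0, and Scn2a and Elavl3 (circled) are the genes whose arrays did not overlap.

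Among the transcription factors that set neuronal fate, 11 were listed, 9 measured and 3 expressed, with a median M of -0.07. Sox4, a SoxC factor that turns on neuronal genes, had 13.24, 13.37 and 12.89 on Ts1Cje arrays, against 12.95, 13.21 and 13.54 on disomic arrays. The groups overlapped (M -0.07, SE 0.21). Of its 3 dimmer expressed probe sets, 2 had M values of 0.20 and 0.22, and 1449370_at had an M of 1.14 with an SE of 0.71, all with overlapping arrays. Sox11, the related SoxC factor, had an M of -0.07 (SE 0.14), and its 5 other probe sets had values between -0.07 and 0.37. Meis2, a TALE homeobox factor of the olfactory interneuron lineage, had an M of 0.01 (SE 0.13), with a confidence interval of -0.33 to 0.35.

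The cytoskeletal, growth cone and adhesion group was the largest, with 15 genes measured and 11 expressed. M was above 0 for 4 and below 0 for 7, and the median was -0.08. Tubb2b, a beta-tubulin of newborn neurons and the brightest probe set of the list, had 13.67, 13.88 and 13.89 on Ts1Cje arrays, against 13.90, 13.81 and 14.09 on disomic arrays. Stmn1, a protein that destabilises microtubules, had 12.98, 13.27 and 13.25 on Ts1Cje arrays, against 13.34, 13.11 and 13.29 on disomic arrays. Both genes overlapped, and their M values were -0.12 (SE 0.11) for Tubb2b and -0.08 (SE 0.11) for Stmn1, among the most precise of the list.

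Map2, the microtubule-associated protein of dendrites, gave different answers by probe set. Its brightest had 12.61, 12.75 and 12.16 on Ts1Cje arrays, against 12.45, 12.45 and 12.92 on disomic arrays, an overlap with an M of -0.10 (SE 0.23). The dimmer 1440699_at had 7.17, 7.18 and 7.07 on Ts1Cje arrays, against 7.85, 7.32 and 8.18 on disomic arrays. Here all Ts1Cje values lay below the disomic ones (M -0.64, SE 0.24), and the moderated t of -2.65 did not pass 4. The Map2 probe set 1421328_at had an M of 0.22 (SE 0.16).

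Mapt encodes tau, the microtubule-associated protein of axons, and each of its 4 expressed probe sets had an M above 0. The brightest, 1424719_a_at, had 10.56, 10.90 and 11.03 on Ts1Cje arrays, against 10.75, 10.53 and 10.65 on disomic arrays, which overlap (M 0.19, SE 0.15). The probe set 1455028_at had 8.75, 9.01 and 8.79 on Ts1Cje arrays, against 8.29, 8.17 and 8.28 on disomic arrays. The groups stood apart, with an M of 0.61 (SE 0.09), a moderated t of 7.03 and an unadjusted p of 0.0016 in limma, where the adjusted p was 1. The probe set 1417885_at also stood apart, with 6.98, 7.24 and 7.25 on Ts1Cje arrays, against 6.65, 6.71 and 6.87 on disomic arrays (M 0.41, SE 0.10, moderated t 3.97). The remaining probe set, 1424718_at, had an M of 0.50 (SE 0.23) with overlap.

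Gap43, a protein of growing axon tips, lies on chromosome 16 outside the trisomic segment. It had 8.42, 7.84 and 8.61 on Ts1Cje arrays, against 7.97, 7.88 and 7.28 on disomic arrays. Ts1Cje replicate 2 lay inside the disomic range (M 0.58, SE 0.30). Ncam1, a neural adhesion molecule, had an M of 0.41 (SE 0.32), and Dpysl3, a collapsin response mediator protein, had 0.20 (SE 0.29). Cd24a, a surface protein used to sort neuroblasts, had an M of -0.30 (SE 0.19), and its other 2 expressed probe sets gave -0.27 and -0.43, all with overlap. The remaining values were -0.23 (SE 0.27) for Crmp1, another collapsin response mediator protein, -0.11 (SE 0.36) for Nrep and -0.06 (SE 0.12) for the stathmin Stmn3.

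The Elavl genes encode the neuronal Hu proteins, which bind and stabilise messenger RNA. All 3 were expressed, with a median M of 0.06. Elavl3 had 8.39, 8.04 and 8.07 on Ts1Cje arrays, against 7.33, 7.99 and 7.45 on disomic arrays. Each Ts1Cje value exceeded each disomic one, disomic replicate 2 coming close (M 0.58, SE 0.22, confidence interval -0.01 to 1.17). A second Elavl3 probe set, 1455484_at, had 7.82, 7.85 and 7.60 on Ts1Cje arrays, against 6.89, 7.12 and 6.93 on disomic arrays. These groups were further apart, with an M of 0.77 (SE 0.10), which is a 1.71-fold difference, a moderated t of 7.63 and an unadjusted p of 0.0011 in limma, where the adjusted p was 1. Elavl2 had the lowest M of the list, -0.40 (SE 0.32), while its second probe set had 0.04. Elavl4 had 7.21, 6.27 and 5.58 on Ts1Cje arrays, against 6.69, 6.68 and 5.51 on disomic arrays, the widest spread within the genotypes (M 0.06, SE 0.59).

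**Figure D3:**
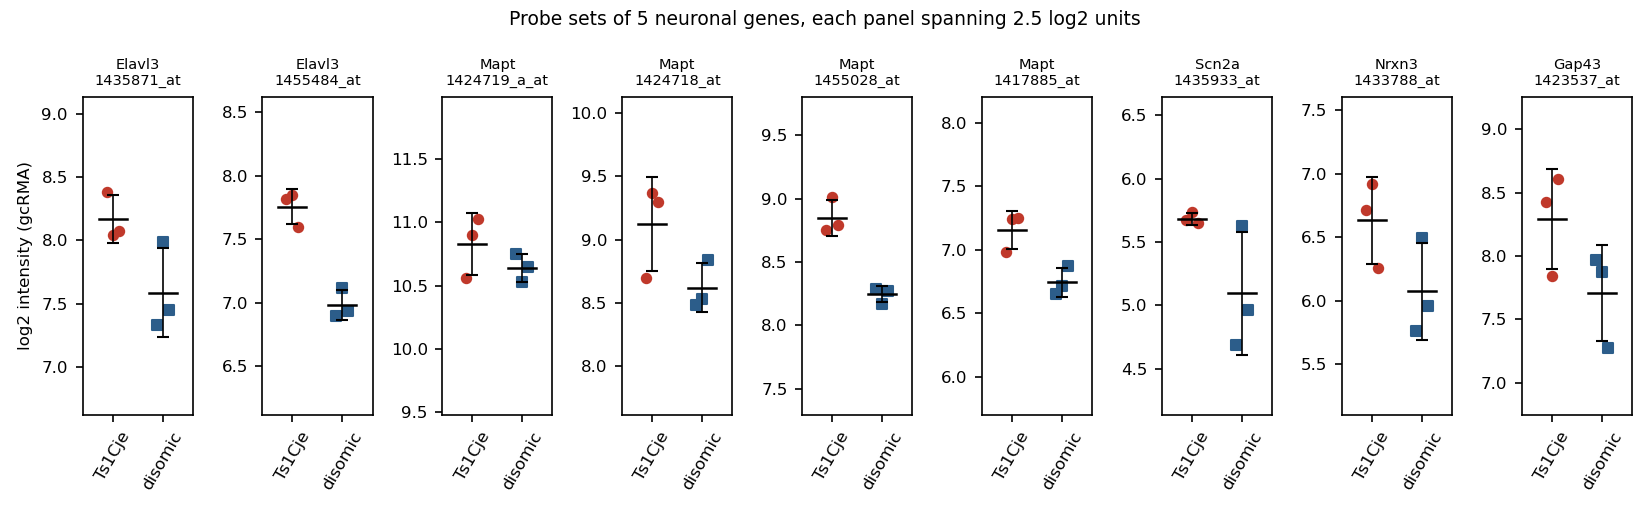
Log2 intensity (gcRMA) on 3 Ts1Cje arrays (red circles, left in each panel) and 3 disomic arrays (blue squares, right) for the expressed probe sets of Elavl3, Mapt, Scn2a, Nrxn3 and Gap43, with means and SD bars. Red and blue do not overlap for Elavl3, for the Mapt probe sets 1455028_at and 1417885_at and for Scn2a, where 1 disomic array at 5.63 nearly reaches the Ts1Cje values.

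Of the genes for GABA synthesis, synapse and excitability, 7 were measured and 5 expressed, with M above 0 for 4 and below 0 for 1 and a median of 0.47. Gad1, the principal GABA-synthesising enzyme, had 10.69, 9.99 and 9.81 on Ts1Cje arrays, against 10.10, 9.99 and 9.01 on disomic arrays. Its groups overlapped (M 0.47, SE 0.42), and M was 0.12 without disomic replicate 3 and 0.20 without Ts1Cje replicate 1. The dimmer Gad1 probe set 1416562_at had an M of 0.12 (SE 0.74), also with overlap. Gad2, the enzyme found at nerve terminals, had 5.77, 5.37 and 5.57 on Ts1Cje arrays, against 5.89, 5.67 and 5.82 on disomic arrays. These overlapped, with an M of the opposite sign, -0.22 (SE 0.13).

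Scn2a, a voltage-gated sodium channel subunit, had 5.67, 5.74 and 5.65 on Ts1Cje arrays, against 4.69, 5.63 and 4.96 on disomic arrays. The groups were separated only by the step between 5.65 and 5.63, and 2 disomic arrays were below the threshold of 5 (M 0.59, SE 0.27). Of the 4 Scn2a probe sets only this 1 exceeded 5. The probe set 1427280_at had an A of 2.45, and 1427281_at and 1445259_at were at the lowest value on all arrays. Nrxn3, a presynaptic adhesion protein, had 6.72, 6.92 and 6.26 on Ts1Cje arrays, against 5.76, 6.50 and 5.96 on disomic arrays. These overlapped (M 0.56, SE 0.28), and Scg3, a protein of secretory granules, had an M of 0.39 (SE 0.27) with overlap.

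Disomic replicate 2 was the highest disomic array for Elavl3, Scn2a and Nrxn3 and disomic replicate 1 the lowest. Without replicate 1, M was 0.39 for Scn2a (moderated t 1.63) and 0.45 for Elavl3 (1.93). Without replicate 2, M was 0.86 for Scn2a (moderated t 8.38) and 0.78 for Elavl3 (5.52), and the median M of the 22 genes was 0.11. Leaving out any of the other arrays took neither gene past 4, and the adjusted p in limma was 1 for both genes whichever array was left out. With the mean of its expressed probe sets in place of the brightest, Elavl3 had a moderated t of 4.51 and an adjusted p in limma of 1.

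Taken by probe set rather than by gene, 50 of the 95 were expressed and 17 were at the lowest value on all arrays. The genotypes did not overlap with Ts1Cje higher for 5 of the 50 (2 of Elavl3, 2 of Mapt and 1 of Scn2a), against 5.82% of expressed single-symbol probe sets. They did not overlap with Ts1Cje lower for 1 (Map2), against 5.14%. The moderated t was above 4 for 2 of the 50, against 1.01% of expressed single-symbol probe sets, and below -4 for none. Probe sets of 1 gene read the same RNA samples and are not replicates. The array controls given above also stood apart between the genotypes, and their part in these results was not tested.

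A further 36 genes of the SVZ neurogenic lineage were set beside these. Of the 31 measured, 10 were expressed, with M above 0 for 6, below 0 for 4 and a median of 0.02. None had a moderated t past 4. Egfr, the growth factor receptor of transit-amplifying cells, had 11.58, 11.51 and 11.59 on Ts1Cje arrays, against 11.47, 11.54 and 11.78 on disomic arrays, which overlap (M -0.03, SE 0.09). Dll1, a Notch ligand of committed progenitors, had an M of 0.30 (SE 0.26). Pax6, a factor of the dopaminergic interneuron path, had an A of 5.22 and an M of 0.04 (SE 0.11). Calb2 and Th, which mark mature olfactory interneurons, were not expressed.

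Markers of other cells were examined because neurospheres are mixtures. None of 9 microglial, 7 ependymal or 6 measured glutamatergic genes was expressed, the highest A being 2.52 for the microglial, 4.03 for the ependymal and 2.25 for the glutamatergic genes, and of 8 vascular genes only Acta2 was (A 7.48). Of 15 stem cell and astrocyte markers 12 were expressed, with M above 0 for 9 and a median of 0.10. Aqp4, the water channel of astrocytes, had 11.41, 11.77 and 11.95 on Ts1Cje arrays, against 10.65, 11.26 and 10.78 on disomic arrays, with no overlap (M 0.81, SE 0.23). Aqp4 was the only 1 of the 12 without overlap and higher, against 6.12% of expressed genes. Gfap was under the threshold by its mean, with an A of 4.87. It had 2.37, 5.75 and 6.36 on Ts1Cje arrays, against 5.42, 5.72 and 3.61 on disomic arrays, a wide spread with overlap (M -0.09, SE 1.35). The study counted astrocytes by GFAP protein in cells plated to differentiate, not in neurospheres like these. The 6 expressed oligodendrocyte lineage genes of 10 measured each had an M below 0, with a median of -0.21, and overlapped.

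Proliferation genes were set beside the neuronal ones because neurospheres hold dividing progenitors. The list includes genes that the study drew from these arrays, so its direction is not independent evidence. All 15 measured proliferation genes were expressed with M below 0, and the median was -0.66. Of these, 10 did not overlap, against 5.16% of expressed genes without overlap and lower. An unadjusted p under 0.05 in limma was found for 9 of them, Aurka, Aurkb, Birc5, Cdk1, Mcm3, Mcm5, Mcm7, Pcna and Plk1, and for 1 of the astrocyte markers, Aqp4. The share over all expressed genes was 6.61%. The moderated t was below -4 for 2 of the 15, Mcm7 and Plk1 (t -4.11), against 0.693% of expressed genes. Mcm7, a subunit of the replicative helicase, had 11.64, 11.51 and 11.56 on Ts1Cje arrays, against 12.48, 12.06 and 12.36 on disomic arrays (M -0.73, SE 0.12, moderated t -5.85, with an adjusted p of 1 in limma). Averaged over the list, proliferation genes stood at 10.01, 9.41 and 9.52 on Ts1Cje arrays, against 10.41, 10.19 and 10.38 on disomic arrays, with no overlap. The 22 expressed lineage genes averaged 9.91, 9.93 and 9.65 on Ts1Cje arrays, against 9.61, 9.87 and 9.71 on disomic arrays, which overlap. The part of the proliferation and astrocyte genes in the Elavl3, Mapt and Scn2a values was not tested.

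**Figure D4:**
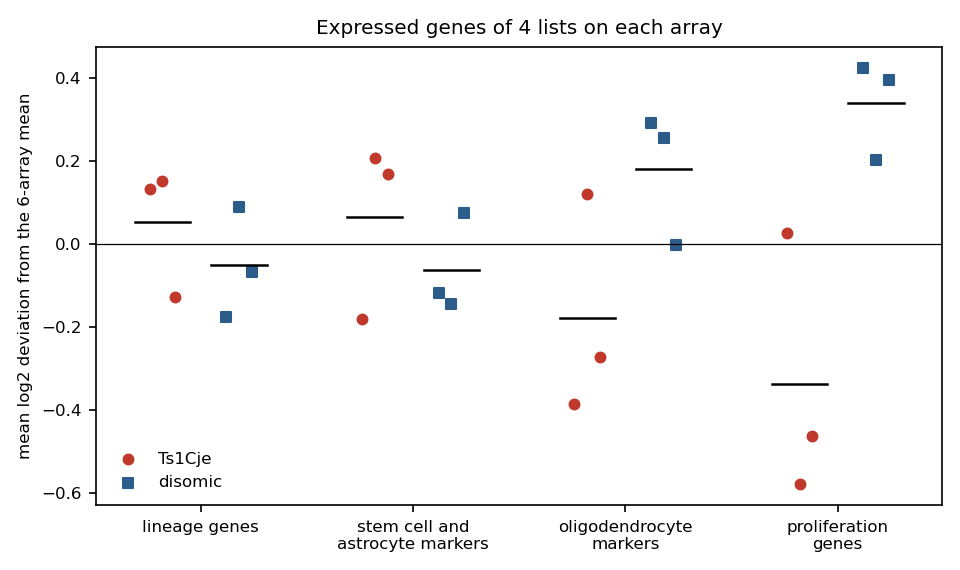
Mean deviation of log2 intensity from the 6-array mean, averaged over the expressed genes of 4 lists, for 3 Ts1Cje arrays (red circles) and 3 disomic arrays (blue squares), with black bars at the means. The lineage genes, stem cell and astrocyte markers and oligodendrocyte markers overlap between the genotypes, whereas every Ts1Cje array is below every disomic array for proliferation genes.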

How the data were processed

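RNA of 3 Ts1Cje and 3 disomic neurosphere cultures was labelled in 2 amplification cycles and hybridised to Affymetrix whole-genome mouse arrays. The deposited log2 intensities had been background-corrected and normalised by the authors with GCRMA (version not given in the sources used here); they ran between 2.23 and 15.89. Fitted were 45037 probe sets, without 64 control probe sets. The platform annotation gave 34945 of them 1 symbol, 932 several and 9160 none, and only the first kind was named. Difference M, its standard error and moderated t came from limma 3.58.1 in R 4.3.3 (lmFit, eBayes, no block), with Benjamini-Hochberg adjustment over all 45037. The prior had 0.336 degrees of freedom, so each standard error rests almost wholly on its own 6 arrays. An exact permutation test of 3 arrays against 3 cannot give a p below 0.1 and was not used. The fit was tested on simulated data. Calls used an adjusted p of 0.05, a moderated t of 4 and non-overlap of arrays.

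Given array by array were expressed genes with non-overlapping arrays, a p under 0.05 or a t past 4, the 4 brightest, the 4 with the largest M irrespective of sign, and genes near the threshold; Elavl4, Gad1, the Mapt and Map2 probe sets and Egfr were added after their values were seen. The members and the comparison lists were chosen with earlier results of these data known. Promoters are from RefSeq (GRCm38.p6). Results were recomputed with a block on replicate number, after cyclic loess, with an intensity-dependent prior, with array weights, on expressed probe sets alone, with other thresholds, symbols and probe set rules, and without each array. The labels number replicates 1 to 3 in both genotypes without tying a number to a litter. The study describes 3 pairs of littermates. Deviations of same-numbered arrays correlated only weakly, which cannot exclude pairing, and the main fit did not take the numbers as pairs. Array number limits the precision, and p-values measure the spread between these cultures.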

Additional observations from a re-analysis of the deposited data

How the results depend on the processing

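Leaving out each array in turn gave 0 to 6 probe sets past the adjusted p (1 with all arrays), 241 to 334 expressed probe sets with a moderated t above 4 (158 with all) and 147 to 456 below -4 (133 with all). The lineage genes with a moderated t above 4 numbered 0 to 2 (0 with all), those without overlap and higher in Ts1Cje 2 to 4 (2 with all) and those without overlap and lower 0 to 3 (0 with all). The median M ran between -0.061 and 0.11, the highest without disomic replicate 2. Each such fit has fewer samples, and non-overlap comes more easily with fewer arrays. The share over all expressed genes is not given for these fits, so the counts are not read as a result about the lineage genes.

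The study describes pairs of littermates, but the labels do not tie a replicate number to a litter. Same-numbered arrays had deviations that correlated at -0.17, -0.03 and 0.13. These values cannot show whether the numbers pair the samples. With the replicate block, no probe set passed the adjusted p. Of 16371 expressed probe sets, 499 then had a moderated t above 4 and 582 below -4, more than in the main fit. Of the 22 expressed lineage genes, 2 were below -4 (Gad2, t -4.60, and Cd24a, t -4.84, each with an adjusted p of 1 in limma). The share over expressed genes with this block is not given here, so the count is not read as a result about the lineage genes. Fitting only expressed probe sets left 57 above 4 and 55 below -4. The unadjusted p of Elavl3 in limma, 0.054 in the main fit, was 0.027 there, with 0.045 for Scn2a. For Elavl3 it was 0.045 after cyclic loess and 0.046 with the intensity-dependent prior, but 0.099 with array weights and 0.14 with the replicate block. With A above 6, 1 lineage gene was without overlap and higher, since Scn2a left the list. With the mean of a gene's expressed probe sets in place of the brightest, 1 lineage gene, Elavl3, was above 4, and 3 were without overlap and higher. The unadjusted p in limma was then 0.0089 for Elavl3 and 0.025 for Mapt. Counting any expressed probe set of a gene, chosen after seeing the data, brought 1 without overlap and lower, Map2. It gave 3 without overlap and higher, since Mapt joined Elavl3 and Scn2a. For these other thresholds and probe set rules, too, the share over all expressed genes is not given.

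Of 292 pairs of a gene and an alternative, 260 kept the sign of M and 32, in 11 genes, did not, and none changed its side of the threshold of the adjusted p. Over the arrays left out in turn, M ran between -0.15 and 0.012 for Stmn1, -0.16 and 0.0014 for Stmn3, -0.37 and 0.45 for Elavl4, -0.076 and 0.14 for Meis2, -0.46 and 0.0057 for Crmp1, -0.22 and 0.071 for Map2, -0.41 and 0.096 for Nrep, -0.18 and 0.066 for Sox11, and -0.21 and 0.084 for Sox4. Of the 22 genes, only Elavl3 and Nrxn3 stayed within 1.5 times their M. The ranges of the other genes that kept their sign were 0.12 to 0.67 for Gad1, 0.13 to 0.54 for Scg3, 0.39 to 0.86 for Scn2a, 0.37 to 0.81 for Gap43, 0.20 to 0.70 for Ncam1, 0.00057 to 0.41 for Dpysl3, 0.089 to 0.32 for Mapt, -0.63 to -0.14 for Elavl2, -0.42 to -0.14 for Cd24a, -0.32 to -0.12 for Gad2 and -0.19 to -0.043 for Tubb2b. Array weights gave -0.041 for Meis2 and -0.023 for Elavl4, and the mean of the probe sets -0.056 for Meis2, 0.091 for Sox11 and 0.37 for Sox4. Other probe sets, examined after seeing the data, gave 0.22 for Map2, -0.19 for Ncam1, -0.17 and -0.066 for Meis2, 0.076, 0.086, 0.16 and 0.37 for Sox11, 0.20, 0.22 and 1.14 for Sox4, and 0.042 for Elavl2. The cause was not tested. Genes near the lowest value carry no measurable difference.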
